A study of Mus musculus with 16 samples.

Results

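The liver carriers that move bile acids and phospholipids were followed across diet and knockdown of fibroblast growth factor receptor 4 (FGFR4). Their 10 genes were named by symbol, with earlier results of these data known, out of 52143 genes in the table, and all 10 were present. They comprise 4 uptake carriers (*Slc10a1*, *Slco1b2*, *Slco1a4* and *Slco2b1*), 4 proteins of the canalicular membrane (*Abcb11*, *Abcc2*, *Abcb4* and *Atp8b1*) and 2 exporters of the basolateral membrane (*Abcc3* and *Slc51b*). Of these, 9 passed the filter on low values used for testing (a gene was left out when more than 4 libraries had under 1 CPM, counts scaled to library size), and *Slc51b* did not.

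RNA from liver biopsies of male C57BL6/J mice was sequenced, with 4 libraries in each of 4 groups. Mice were 6 weeks old at the start and ate chow or a high-fat diet (HFD, 60% fat) for 12 weeks. The groups Chow and HFD received saline every 2 weeks, and the groups Chow/FGFR4 KD and HFD/FGFR4 KD received 3 mg/kg of an siRNA against *Fgfr4*, coupled to a sugar that hepatocytes take up. No group received a control siRNA, so the injection of an siRNA and the loss of FGFR4 cannot be told apart.

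Hepatocytes take bile acids from portal blood with the sodium-coupled carrier NTCP (*Slc10a1*) and with organic anion transporting polypeptides (*Slco* genes). They secrete them into bile through the bile salt export pump (*Abcb11*), while *Abcb4* moves phosphatidylcholine into the outer leaflet of the canalicular membrane and *Atp8b1* flips phosphatidylserine inwards. *Abcc2* exports conjugates such as bilirubin glucuronides into bile, and *Abcc3* and the heterodimer of *Slc51a* and *Slc51b* return anions and bile acids to blood. FGFR4 is the hepatocyte receptor for FGF15, the ileal hormone that represses *Cyp7a1*, the rate-limiting enzyme of bile acid synthesis, and the bile acid receptor FXR (*Nr1h4*) activates *Abcb11*.

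Total estimated counts ranged from 3445949 to 5976449 per library. The 7 hepatocyte markers of the list used here were present in every group and summed to between 64760 and 82170 CPM per library. *Fgfr4* lay between 2.43 and 6.17 CPM in the 8 KD libraries and between 21.8 and 36.3 CPM in the 8 saline libraries. Chow 3, Chow/FGFR4 KD 4 and HFD/FGFR4 KD 1 stood apart, and HFD fell into 2 pairs. Chow 3 held 122 counts of *Fabp6* and 65 of *Vil1*, genes of the intestinal epithelium, against at most 8 and 7 elsewhere. Chow/FGFR4 KD 4 had 12210 CPM of 6 acute-phase genes against 1645 to 2838 CPM elsewhere. HFD/FGFR4 KD 1 differed from the rest of its group by 48.0 to 72.6 (chi-square of the counts divided by its degrees of freedom), and the remaining pairs of that group by 7.59 to 16.6. By the same measure HFD 1 and 3 differed by 11.4 and HFD 2 and 4 by 11.7, against 34.7 to 58.9 between libraries of the 2 pairs. For the tested carriers, results that rest on Chow 3, Chow/FGFR4 KD 4 or HFD/FGFR4 KD 1 are given with and without them. The HFD libraries were left out only singly, and no fit left out a whole HFD pair. Tests of all other genes are given with all libraries only. Without HFD/FGFR4 KD 1, 138 genes were called in KD on HFD, against 356 with all libraries.

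FGFR4 KD in HFD-fed mice changed 2 of the 9 tested carriers, in opposite directions, where 3.14% of all tested genes were called. *Abcb11* rose by 0.74 on the log2 scale (1.68-fold, SE 0.148, adjusted p 0.0453), and *Abcc3* fell by 0.73 (0.602-fold, SE 0.224, adjusted p 0.211). On chow KD called 0 of 9 carriers with limma-voom, edgeR and DESeq2, 0 had an unadjusted p under 0.05, and 0.00883% of all genes were called, which is *Fgfr4* alone. HFD in saline mice changed 3 of 9, beside 26% of all genes. It lowered *Abcb11* by 0.68 (SE 0.148, adjusted p 0.00965) and raised *Abcb4* by 0.54 (SE 0.104, adjusted p 0.00488) and *Slco2b1* by 0.27 (SE 0.0725, adjusted p 0.0298). HFD in KD mice called 3 of 9 as higher (*Abcb4*, *Slco2b1* and *Slco1b2*), beside 20.2% of all genes. The difference between the KD effects called 0 of 9 carriers with limma-voom and edgeR and 1 with DESeq2. In limma-voom 1 carrier had an unadjusted p under 0.05 and 0.0353% of all genes were called, and DESeq2 called 54 of 11324 genes. Calls were made in a limma-voom fit and needed an unadjusted p under 0.05 together with an adjusted p (Benjamini-Hochberg, over all 11324 genes tested) under 0.25. These p-values rest on the spread between numbered libraries, pooled over all 4 groups and drawn toward that of other genes. In bulk tissue fewer cells of a type and less RNA per cell cannot be told apart.

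**Figure D1:**
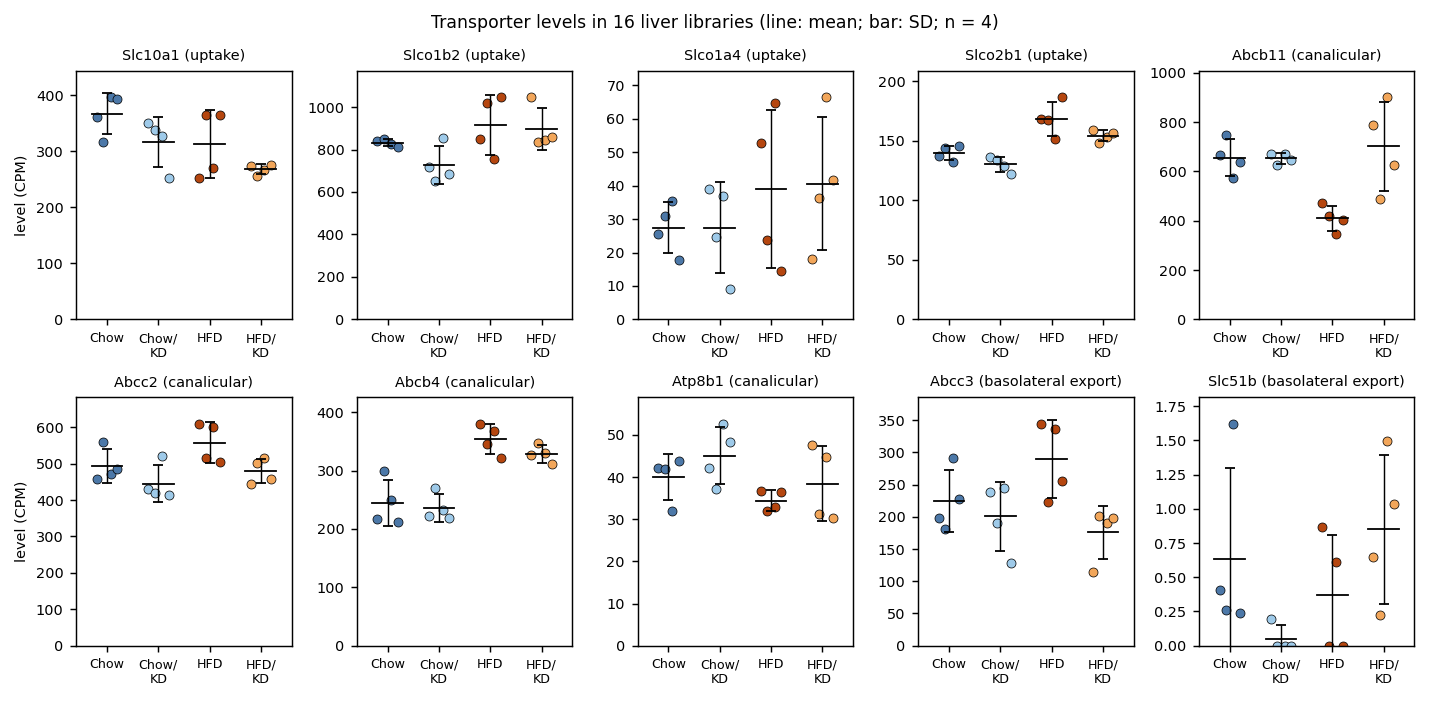
Levels of the 10 transporters in CPM (vertical axes, each starting at 0) in 16 liver libraries. Points are libraries, horizontal lines are group means and bars are SD over 4 libraries. *Abcb11* is lowest in the 4 HFD libraries (347 to 471 CPM), and *Abcb4* and *Slco2b1* are higher on HFD with or without KD.

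*Abcb11* (ENSMUSG00000027048, chromosome 2, 69238282 to 69342616, minus strand, GRCm38) encodes the bile salt export pump, which sets the rate of bile acid secretion into bile. Its levels were 666, 749.5, 572 and 638 CPM in Chow and 671, 626, 673 and 648 CPM in Chow/FGFR4 KD. In HFD they were 471, 419, 347 and 403 CPM, and in HFD/FGFR4 KD 789.9, 489.8, 901 and 628 CPM. All 4 HFD libraries lay below every library of the other 3 groups, which overlapped one another. The mean was 656 ± 73.6 CPM in Chow (SD, n = 4), 654 ± 22.2 in Chow/FGFR4 KD, 410.1 ± 51.0 in HFD and 702 ± 181 in HFD/FGFR4 KD. HFD thus held 62.5% of the Chow mean and HFD/FGFR4 KD 107%. HFD/FGFR4 KD had the widest spread of the 4 groups.

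On chow the KD effect on *Abcb11* was close to 0 (95% interval of the log2 change -0.31 to 0.31), where on HFD it was 0.43 to 1.06. The difference between those 2 effects was 0.74 (SE 0.209, unadjusted p 0.00251), but it was not called, with an adjusted p of 0.567 over all genes. DESeq2 called it (0.78, adjusted p 0.0965), and edgeR's quasi-likelihood test did not. HFD in KD mice gave 0.06 (SE 0.148, adjusted p 0.855). These comparisons share libraries and are not independent of one another. The rise under KD on HFD was called with each of the 8 compared libraries left out in turn (0.61 to 0.91, adjusted p at most 0.165), and without HFD/FGFR4 KD 1 it was 0.68 (adjusted p 0.126). The fall on HFD in saline mice was likewise called in 8 of 8 such fits (-0.75 to -0.60), and without Chow 3 it was -0.75 (adjusted p 0.0106).

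Promoter windows of 8 of the 10 genes were found in a RefSeq table on GRCm38.p6. *Abcc3* and *Atp8b1* had none there. FXR is known to bind an inverted repeat of the letters GGTCA with 1 base between the copies, GGTCANTGACC. Written on both strands alike, this motif was complete in 0.0396% of the 32851 windows of 300 bases in the table (250 bases before the start site to 50 after it) and in no window of these genes. At least 9 of its 10 fixed letters were matched in 0.758% of all windows, and in the windows of *Abcb11* (-62 to -52 from the start site), *Slco1b2* (-87 to -77) and *Slc51b* (-186 to -176). The 250 bases before the start site of these 3 genes are shown because FXR is the receptor through which bile acids are known to act on *Abcb11*. Capitals mark this near match and the single nuclear receptor site AGGTCA on either strand, which overlap in *Abcb11* and *Slco1b2*. The windows are chr2:69342617-69342866 (minus strand), chr6:141629268-141629517 (plus strand) and chr9:65422774-65423023 (minus strand).
Abcb11: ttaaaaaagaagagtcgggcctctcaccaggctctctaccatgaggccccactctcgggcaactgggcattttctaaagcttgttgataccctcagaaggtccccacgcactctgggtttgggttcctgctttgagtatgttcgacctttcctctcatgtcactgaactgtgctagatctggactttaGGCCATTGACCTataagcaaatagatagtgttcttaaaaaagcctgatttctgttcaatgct
Slco1b2: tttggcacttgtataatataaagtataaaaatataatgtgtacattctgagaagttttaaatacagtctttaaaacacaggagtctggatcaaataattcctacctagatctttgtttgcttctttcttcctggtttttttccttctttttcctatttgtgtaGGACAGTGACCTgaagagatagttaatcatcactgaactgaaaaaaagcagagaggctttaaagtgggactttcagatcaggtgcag
Slc51b: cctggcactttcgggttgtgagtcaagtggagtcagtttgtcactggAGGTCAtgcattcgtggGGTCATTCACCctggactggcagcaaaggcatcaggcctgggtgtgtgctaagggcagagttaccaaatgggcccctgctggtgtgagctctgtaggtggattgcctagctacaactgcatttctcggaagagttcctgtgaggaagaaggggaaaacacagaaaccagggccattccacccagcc

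The site AGGTCA was found in 16.3% of all windows, and also in those of *Abcc2* (-49 to -44) and *Slc10a1* (-87 to -82). The NRF2 core TGACNNNGC was matched in *Abcc2* only among the 8 (-98 to -90), and in 12.4% of all windows. The LRH-1 site CAAGGTCA, the direct repeat GGTCANAGGTCA, the E-box CACGTG and the D-box TTATGTAA, bound by clock factors, were in no window of these genes. Their shares over all windows were 1.56%, 0.0761%, 7.15% and 0.938%, each searched on both strands. A match of letters is a description of the window and was not tested for binding.

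*Abcc3* (ENSMUSG00000020865, chromosome 11, 94343295 to 94392997) encodes MRP3, which exports glucuronides and bile acids into blood. Its levels were 199, 181, 291 and 228 CPM in Chow and 239, 190.2, 245 and 128.5 CPM in Chow/FGFR4 KD. In HFD they were 345, 223, 336 and 255 CPM, and in HFD/FGFR4 KD 114, 201, 189.8 and 198 CPM. HFD and HFD/FGFR4 KD did not overlap (223 CPM as the lowest and 201 CPM as the highest value), but both overlapped the chow groups. The means were 225 ± 48.3 (SD, n = 4) in Chow, 201 ± 54.0 in Chow/FGFR4 KD, 289.6 ± 60.1 in HFD and 176 ± 41.3 in HFD/FGFR4 KD.

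The call of *Abcc3* in KD on HFD depended on single libraries, and HFD 1 and 3 held its 2 highest levels. It was lost in 6 of 8 fits with a library left out (-0.85 to -0.54, with 0.462 as the highest adjusted p). Without HFD/FGFR4 KD 1, the lowest library of its group, the change was -0.54 (adjusted p 0.456), and with that library, Chow 3 and Chow/FGFR4 KD 4 left out together it was again called (-0.54, adjusted p 0.191). With scaling by library totals it was -0.81 (adjusted p 0.362). For HFD in saline mice the estimate was 0.36 (SE 0.223, adjusted p 0.318), which did not pass the test with all libraries and did without Chow 3 (0.50, adjusted p 0.188). The difference between the KD effects was -0.55 (SE 0.316, adjusted p 0.783).

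Across the 2 faces of the hepatocyte the levels of *Abcb11* and *Abcc3* were set side by side. The ratio of their CPM was 3.07 ± 0.918 (SD, n = 4) in Chow, 3.48 ± 1.08 in Chow/FGFR4 KD, 1.46 ± 0.358 in HFD and 4.32 ± 1.98 in HFD/FGFR4 KD. In HFD it ran from 1.03 to 1.88, below the lowest value of each other group (1.97, 2.75 and 2.43). This ratio was formed from levels already described and is given with no test. The ratio of *Abcb11* to *Abcb4* was 2.72 ± 0.384 in Chow, 1.16 ± 0.144 in HFD and 2.14 ± 0.570 in HFD/FGFR4 KD.

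**Figure D2:**
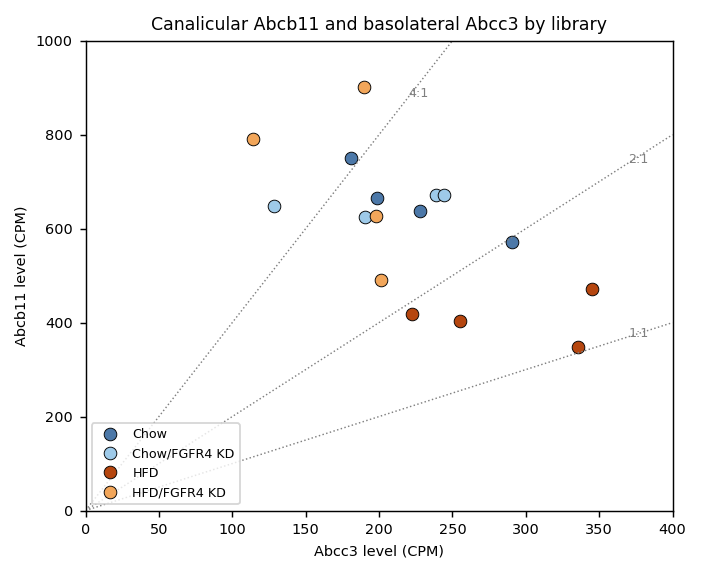
Level of *Abcb11* (vertical axis, CPM) against *Abcc3* (horizontal axis, CPM) in 16 libraries coloured by group, with dotted lines at ratios of 1, 2 and 4. The 4 HFD libraries lie below the line of ratio 2, at 1.03 to 1.88, and the HFD/FGFR4 KD libraries between 2.43 and 6.91.

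Of the remaining canalicular genes, *Abcb4* and *Abcc2* did not follow *Abcb11* over the 16 libraries (Pearson's r of log2 CPM -0.456 and -0.457). *Abcb4* (ENSMUSG00000042476, chromosome 5, 8893717 to 8959231), the phospholipid floppase, had 217, 298.5, 250.4 and 212 CPM in Chow and 222.5, 270.3, 233 and 218 CPM in Chow/FGFR4 KD. In HFD it had 380.5, 345, 367 and 322 CPM, and in HFD/FGFR4 KD 326, 347, 329.7 and 311 CPM. Every HFD-fed library lay above every chow-fed library, with 311 CPM as the lowest on HFD and 298.5 CPM as the highest on chow. The change was 0.54 in saline mice (1.46-fold) and 0.48 in KD mice (1.39-fold, SE 0.104, adjusted p 0.0214). Both were called in 8 of 8 fits with a library left out. The estimates for KD were -0.11 on HFD (95% interval -0.33 to 0.12, adjusted p 0.774) and -0.04 on chow (-0.26 to 0.18, adjusted p 0.984).

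*Abcc2* (MRP2) ranged from 459 to 561 CPM in Chow, 413 to 519.8 in Chow/FGFR4 KD, 504 to 610.2 in HFD and 445 to 515 in HFD/FGFR4 KD. Its log2 change under KD was -0.22 on HFD (SE 0.0978, unadjusted p 0.0422, adjusted p 0.433) and -0.15 on chow (adjusted p 0.976), and neither was called. HFD gave 0.17 in saline mice (SE 0.0977, adjusted p 0.282) and 0.11 in KD mice (adjusted p 0.572), also not called. In saline mice *Abcc2* was called higher without Chow 2 (0.23, adjusted p 0.187) and with library totals (0.45, adjusted p 0.0249). It was also called there with quality weights (0.21, adjusted p 0.164) and with no filter (0.19, adjusted p 0.174). *Atp8b1*, the aminophospholipid flippase, was the lowest canalicular gene at 30.3 to 52.7 CPM over all libraries. With all libraries it was called in none of the 5 comparisons, with estimates from -0.22 to 0.16. It was called lower in HFD in KD mice without HFD/FGFR4 KD 1 (-0.33, adjusted p 0.224), and lower in HFD in saline mice with Chow 3, HFD/FGFR4 KD 1 and Chow/FGFR4 KD 4 left out together (-0.32, adjusted p 0.151). Over the 16 libraries its log2 CPM followed that of *Abcb11* with Pearson's r of 0.66, and 0.72 after group means were taken out, the highest r of *Abcb11* with another carrier. These libraries differ in depth and share groups, and the r is a description.

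Among the uptake carriers, calls were made only for *Slco2b1* and *Slco1b2*, and only between diets. *Slco1b2*, the liver-specific organic anion carrier, had the highest level, at 841, 847, 828 and 813 CPM in Chow and 717, 652.5, 856 and 687 CPM in Chow/FGFR4 KD. It had 847, 1018, 753 and 1045 CPM in HFD and 1046, 835, 845 and 858 CPM in HFD/FGFR4 KD. The 4 Chow libraries lay close together (SD 15.4 CPM), and each other group spread more widely (SD from 89.2 to 139). HFD in KD mice raised it by 0.30 (SE 0.111, adjusted p 0.144). This call was lost without HFD/FGFR4 KD 1 (0.22, adjusted p 0.253), without Chow/FGFR4 KD 2 (0.25, adjusted p 0.278) and without Chow/FGFR4 KD 4 (0.27, adjusted p 0.26), and with Chow 3, HFD/FGFR4 KD 1 and Chow/FGFR4 KD 4 left out together the change was 0.20 (adjusted p 0.404). In saline mice the change was 0.13 (adjusted p 0.512).

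*Slco2b1* (ENSMUSG00000030737, chromosome 7, 99657804 to 99711340) transports steroid sulfates and other organic anions. It had 137, 144, 132.5 and 146 CPM in Chow, 136, 134, 129 and 122 in Chow/FGFR4 KD, 168, 167, 152 and 186 in HFD and 159, 148, 153 and 156.5 in HFD/FGFR4 KD. All 8 HFD-fed libraries lay above the 8 chow-fed ones. The increase was small but even, at 0.27 in saline mice (1.20-fold) and 0.25 in KD mice (1.19-fold, SE 0.0731, adjusted p 0.0754), and it was called in 8 of 8 fits with a library left out in each. The estimates for KD were -0.12 on HFD (adjusted p 0.584) and -0.10 on chow (adjusted p 0.976).

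*Slc10a1* (NTCP), the main carrier of conjugated bile acids into hepatocytes, had 361, 317, 396 and 392.5 CPM in Chow and 350.2, 338, 328 and 251 CPM in Chow/FGFR4 KD. It had 252, 365, 269.5 and 364 CPM in HFD and 274, 256.5, 267 and 276 CPM in HFD/FGFR4 KD. HFD libraries 1 and 3 were low and 2 and 4 high, and HFD/FGFR4 KD was tight around 268 ± 8.80 CPM (SD, n = 4). Its 4 log2 changes lay between -0.24 and -0.20, and none was called. HFD in saline mice came closest (-0.24, SE 0.129, unadjusted p 0.077), and with scaling by library totals the sign turned (0.04, adjusted p 0.88). Without Chow 2, HFD 2 or HFD 4 it was called as lower (-0.31, -0.33 and -0.32, adjusted p at most 0.193). In KD mice the fall on HFD was called without Chow/FGFR4 KD 4 (-0.34, adjusted p 0.175), the library with high acute-phase genes.

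*Slco1a4* (OATP1A4) was the most variable of the tested carriers, from 9.14 to 66.5 CPM. In HFD it had 52.9, 23.9, 64.8 and 14.4 CPM, high in libraries 1 and 3 and low in libraries 2 and 4. The paralog *Slco1a1*, another basolateral organic anion carrier, ran the other way in the same libraries, at 17.5, 182, 18.6 and 197 CPM. *Abcc3* was also high in HFD 1 and 3 (345 and 336 CPM), and *Slc10a1* was low there (252 and 269.5 CPM). With group means taken out, log2 CPM of *Slco1a4* and *Abcc3* had an r of 0.80 over 16 libraries, given as a description. No change of *Slco1a4* was called, and its 95% intervals were wide (-0.86 to 1.13 for KD on HFD).

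*Slc51b*, the beta subunit of the basolateral bile acid exporter, was near the limit of detection. Its counts were 2, 1, 8 and 1 in Chow and 1, 0, 0 and 0 in Chow/FGFR4 KD. In HFD they were 6, 0, 4 and 0, and in HFD/FGFR4 KD 3, 1, 9 and 4. Summed over each group these are 12, 1, 10 and 17 counts, or 0.672 CPM (95% exact Poisson interval 0.347 to 1.17), 0.0612 (0.00155 to 0.341), 0.408 (0.195 to 0.750) and 0.894 (0.521 to 1.43). The intervals cover counting error only. With no filter on low counts, limma-voom called it higher on HFD in KD mice (adjusted p 0.0758). So it did when 4 libraries at 1 CPM or more, by library totals, sufficed for a gene to be tested (adjusted p 0.177). Neither setting called it in another comparison. The KD group on chow had 1 count in all.

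The highest Chow count of *Slc51b*, 8 in Chow 3, was found in the library with *Fabp6* and *Vil1*. Chow 3 also held 28 counts of the partner *Slc51a*, 44 of *Krt19* and 50 of *Epcam*, where the other libraries had at most 3, 10 and 19. In HFD/FGFR4 KD, with 17 counts of *Slc51b*, *Fabp6*, *Vil1* and *Slc51a* were at 0 in all 4 libraries. Of the 5 intestinal markers on the list *Lct* was at 0 in Chow as well. The remaining markers, *Fabp2* and *Slc10a2*, ran differently. Their means were 56.0 and 37.7 CPM in Chow, 142.3 and 45.4 in HFD, and 110.7 and 53.6 in HFD/FGFR4 KD. In HFD libraries *Fabp6*, *Vil1* and *Lct* had at most 1 count each. The sum of the 5 was 160.8 CPM in Chow 3 and 77.4 to 91.1 in the rest of Chow, but 172 to 205.1 in HFD and 133.4 to 185.4 in HFD/FGFR4 KD. The part of these cells in the *Slc51b* counts was not tested.

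**Figure D3:**
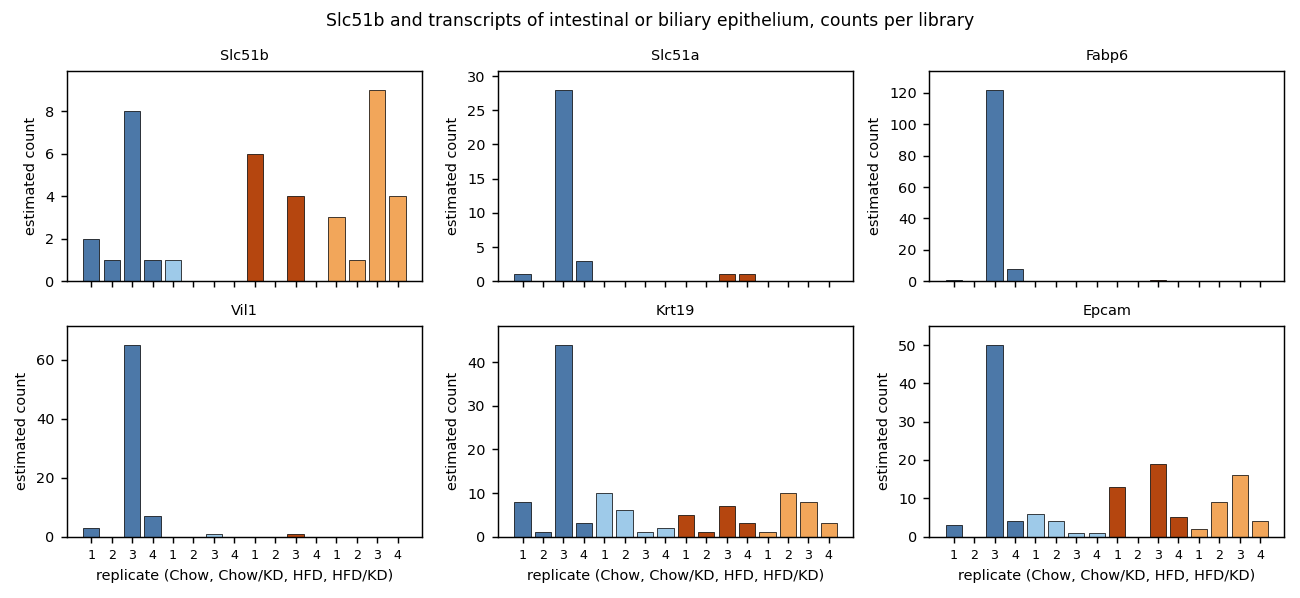
Estimated counts (vertical axes) of *Slc51b*, its partner *Slc51a*, the intestinal genes *Fabp6* and *Vil1* and the epithelial genes *Krt19* and *Epcam* in each library, ordered by group and replicate. Chow 3 stands out with 122 counts of *Fabp6* and 8 of *Slc51b*, while HFD/FGFR4 KD 3 has 9 counts of *Slc51b* and none of *Fabp6*.

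Levels per kb of the longest transcript allow an order of the genes if counts grow with transcript length, which was not tested. The labels and the study's methods name different library preparations (KAPA mRNA HyperPrep and HTG EdgeSeq). In HFD this order was *Slco1b2* (277 ± 42.1 CPM per kb, SD, n = 4), *Slc10a1* (179 ± 34.6), *Abcb4* (86.7 ± 6.27), *Abcb11* (81.6 ± 10.2), *Abcc2* (69.5 ± 6.98), *Abcc3* (57.9 ± 12.0), *Slco2b1* (38.4 ± 3.24), *Slco1a4* (10.2 ± 6.20), *Atp8b1* (5.12 ± 0.359) and *Slc51b* (0.521 ± 0.619). *Abcb4* and *Abcb11* lay within their SD of each other there, as did *Abcc2* and *Abcc3*. In Chow, *Abcb11* was the third at 131 ± 14.7 CPM per kb, above *Abcc2* (61.5 ± 5.70) and *Abcb4* (59.9 ± 9.77), which lay within their SD of each other. With these lengths *Abcb11* held place 3 in Chow, Chow/FGFR4 KD and HFD/FGFR4 KD and place 4 in HFD. The order depends on the transcript length. With the median length of each gene's transcripts, *Abcb11* held place 4 in those 3 groups and place 6 in HFD. In HFD that length puts *Slco2b1*, whose 9 transcripts have a median of 768 bases, at 219 CPM per kb, *Abcc2* at 112, *Abcb4* at 103, *Slco1a4* at 17.3 and *Atp8b1* at 9.23.

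Libraries of the 2 groups did not overlap for 2 of 9 carriers in KD on HFD (*Abcb11* and *Abcc3*), against 6.49% of all genes, and for 0 of 9 in KD on chow, against 2.52%. They did not overlap for 3 of 9 in HFD in saline mice (*Abcb11*, *Abcb4* and *Slco2b1*), against 16.1%, and for 2 of 9 in HFD in KD mice (*Abcb4* and *Slco2b1*), against 11.5%. The median log2 change of the 9 carriers was -0.11 under KD on HFD, -0.12 under KD on chow, 0.17 for HFD in saline mice and 0.11 for HFD in KD mice. The median over all genes lay between -0.0088 and 0.0070 in these comparisons. With Chow 3, HFD/FGFR4 KD 1 and Chow/FGFR4 KD 4 left out together, the numbers of called carriers were 2, 0, 5 and 3 in the same order, and in HFD in KD mice *Slc10a1* (-0.35, adjusted p 0.171) was then called and *Slco1b2* was not. Of the 11613 genes tested without these libraries, 232, 1, 3281 and 2254 were called in that order.

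**Figure D4:**
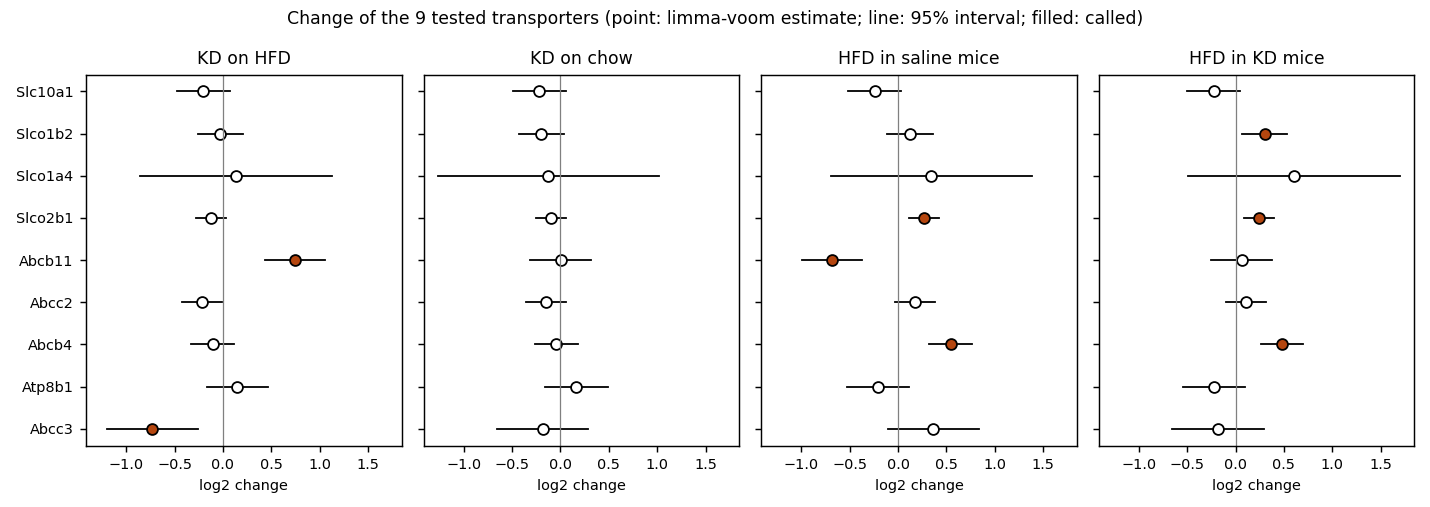
Log2 change (horizontal axes) of the 9 tested transporters in 4 comparisons, with limma-voom estimates as points and 95% intervals as lines, filled where called. *Abcb11* moves up by 0.74 under KD on HFD and down by 0.68 on HFD in saline mice, and no point is filled for KD on chow.

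**Figure D5:**
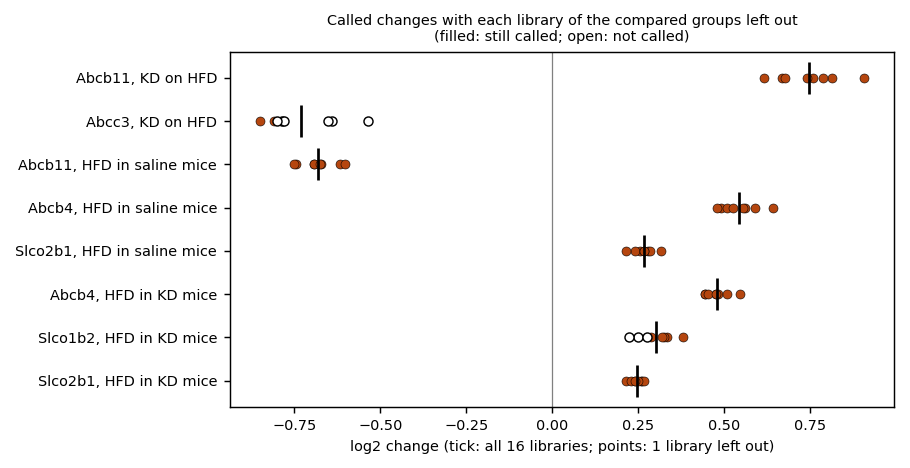
Log2 change (horizontal axis) of the 8 called results with all libraries (tick) and with each library of the compared groups left out in turn (points, open where no longer called). *Abcc3* loses its call in 6 of 8 fits and *Slco1b2* in 3 of 8, and the other results in none.

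The enzyme upstream of these carriers was set beside them. *Cyp7a1* had 66.4, 20.6, 64.1 and 57.3 CPM in Chow, 38.3, 32, 50.6 and 18.2 in Chow/FGFR4 KD, 34.9, 41.7, 29.9 and 59.2 in HFD, and 208, 184, 172 and 334 in HFD/FGFR4 KD. KD raised it on HFD by 2.45 (SE 0.326, adjusted p 0.00276), and on chow the estimate was -0.56 (adjusted p 0.976). Their difference of 3.01 was called (SE 0.495, adjusted p 0.0764), unlike that of *Abcb11*. Within HFD/FGFR4 KD the highest *Cyp7a1* value was in library 4, and the highest *Abcb11* value in library 3.

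Of 36 other transport genes on a list of hepatic carriers and their partners, 28 were tested. KD on HFD lowered 3 of them and raised 1 (edgeR called 2 and DESeq2 5), where 3.14% of all genes were called. The sterol exporter pair *Abcg8* (-1.18, SE 0.239, adjusted p 0.0496) and *Abcg5* (-0.61, SE 0.193, adjusted p 0.227) and the canalicular anion exporter *Abcg2* (-0.31, SE 0.0968, adjusted p 0.217) fell, and the prostaglandin carrier *Slco2a1* rose by 1.001 (SE 0.21, adjusted p 0.0577). KD on chow called 0 with limma-voom, edgeR and DESeq2, and 3 had an unadjusted p under 0.05. HFD in saline mice raised 5 and lowered 5, beside 26% of all genes, led by *Slco2a1* (-1.96, adjusted p 8.8e-05) and including *Slco1a1* (-2.68, adjusted p 0.0148), *Slc10a5* (-0.47, adjusted p 0.0292), the copper pump *Atp7b* (0.55, adjusted p 0.102) and *Tmem30a* (-0.54, adjusted p 0.0136), the flippase subunit that pairs with *Atp8b1*. HFD in KD mice raised 4 and lowered 5, beside 20.2% of all genes. By smallest p these were *Rdx* (radixin, which anchors canalicular proteins to actin; 0.40, adjusted p 0.0211), *Tmem30a* (-0.58, adjusted p 0.0226), the cholesterol exporter *Abca1* (-0.87, adjusted p 0.0425), *Slco2a1* (-0.76, adjusted p 0.0455), *Abcc6* (0.28, adjusted p 0.0789) and the scaffold gene *Slc9a3r1* (-0.43, adjusted p 0.0806). The median log2 change of this list lay between -0.09 and 0.0015 in the 4 comparisons.

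Among 17 factors known to control such carriers, 16 were tested, and 0 were called under KD on either diet with limma-voom, edgeR and DESeq2, with 0 at an unadjusted p under 0.05. HFD in saline mice raised 4 and lowered 1, which is 5 of 16 beside 26% of all genes. The fatty acid receptor *Ppara* rose by 0.61 (SE 0.137, adjusted p 0.0119), the antioxidant factor *Nfe2l2* by 0.63 (SE 0.198, adjusted p 0.0554), the xenobiotic receptor *Nr1i3* by 0.63 (SE 0.276, adjusted p 0.161) and *Cebpa* by 0.25 (SE 0.115, adjusted p 0.173), while *Hnf4a* fell by 0.44 (SE 0.167, adjusted p 0.108). HFD in KD mice raised 5 of 16, beside 20.2% of all genes. They included *Ppara* (0.65, adjusted p 0.0221), *Cebpa* (0.47, adjusted p 0.0361), *Nr1i3* (0.90, adjusted p 0.0917) and *Nr1h4*, which encodes FXR (0.35, adjusted p 0.121). Of 7 NRF2 targets, 1 was called in KD on HFD, beside 3.14% of all genes, which was *Nqo1* (-1.02, SE 0.331, adjusted p 0.237). DESeq2 also called 1 of the 7 and edgeR 0, and *Gclm* had an estimate of 0.27 (unadjusted p 0.0107, adjusted p 0.283).

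Markers of other cell types and clock genes moved with diet too. The counts of markers stand beside 13.3% of all genes called higher and 12.7% called lower in HFD in saline mice. In KD on HFD these shares were 1.5% and 1.64%. The 9 macrophage markers were all called higher in HFD in saline mice, where *Abcb11* was lower, and their sum ranged from 73.6 to 75.2 CPM in Chow and from 121 to 231 in HFD. It was 89.2 to 124 CPM in Chow/FGFR4 KD and 108 to 192 in HFD/FGFR4 KD, where the *Abcb11* mean was 107% of Chow (489.8 to 901 CPM). In HFD in KD mice 2 of the 9 were called higher, beside 10.1% of all genes. KD on chow called 0 of the 9, and all 9 estimates were positive. Of 6 stellate cell markers, 3 were called higher in HFD in saline mice (*Col1a1*, *Col3a1* and *Pdgfrb*). Their sum was 51.4 to 76.0 CPM in Chow, 59.4 to 123.5 in HFD/FGFR4 KD, 184 and 178 in HFD 1 and 3, and 83.6 and 86.2 in HFD 2 and 4, the pairs in which *Abcc3* and *Slc10a1* also differed. Of 4 adipocyte markers only *Cidec*, a lipid droplet gene, was tested. It was called higher in HFD in saline mice (12.3-fold, adjusted p 0.0281) and lower in KD on HFD (0.204-fold, adjusted p 0.185), opposite in direction to *Abcb11* in both. The untested adipocyte markers did not rise with *Cidec*. *Adipoq* had a mean of 0.0383 CPM in HFD and 0.0507 in Chow, and *Plin1* was at 0 in HFD and at 0.119 in Chow. *Lep* was at 0 in all groups. Of the 7 hepatocyte markers, 4 were called lower in HFD in saline mice (*Apoa1*, *Serpina1c*, *Fgb* and *Ahsg*, -0.68 to -0.25) and 1 in KD on HFD. Of 5 endothelial markers 2 were called higher in HFD in saline mice, beside 26% of all genes called in either direction. Of 4 tested cholangiocyte markers 0 were called there by limma-voom and 1 by edgeR and DESeq2, with 0 at an unadjusted p under 0.05. Clock genes differed between diets. *Arntl*, *Npas2*, *Clock*, *Nfil3* and *Cry1* summed to 146 to 191 CPM in Chow and 51.5 to 76.1 in HFD, and *Dbp*, *Tef*, *Per1*, *Per2*, *Per3*, *Nr1d1*, *Nr1d2* and *Ciart* to 159 to 265 CPM in Chow and 282 to 427 in HFD. In KD on HFD, 3 of the 5 tested genes of the first list were called higher and 2 of the 7 tested of the second lower, beside 3.14% of all genes. Sampling times are not given in the labels. The part of cell make-up and of time of day in the carrier results was not tested.

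The genes whose log2 CPM was most like that of each carrier were sought among 8800 genes with a mean of at least 5 CPM over the 16 libraries. For *Abcb11* these were *Igfbp2* (r 0.90), *Acmsd* (0.89) and *Abca2* (0.87), which after group means were taken out had an r of 0.69, 0.78 and 0.70. For *Abcc3* they were *Cs* (0.91), *Anxa4* (0.90) and *Acaa1b* (0.89), with 0.92, 0.87 and 0.96. *Abcb4* was most like the clock gene *Dbp* (0.91, and 0.48 with group means taken out), and *Slco2b1* most like *F5* (0.91, and 0.62). The others were *Spcs3* for *Atp8b1* (0.89), *Dlat* for *Slco1a4* (0.88), *Akr1c14* for *Slc10a1* (0.85), *Brd7* for *Slco1b2* (0.85) and *Prpsap1* for *Abcc2* (0.84). These r are descriptions over libraries that share groups.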

How the data were processed

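The deposited table holds expected counts (estimated counts) of 52143 genes in 16 liver libraries, 4 per group. According to the study's methods, the authors used kallisto to pseudoalign reads to mouse transcripts, and tximport to sum the estimates per gene. The submitters' processing notes also name fastp and GRCm38. The transcriptome release and the use of strand are not given in the sources used here. The labels name a KAPA mRNA HyperPrep kit and the study's methods HTG EdgeSeq, which was not resolved.

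The filter dropped every gene that more than 4 libraries had under 1 CPM, and 11324 genes passed. A limma-voom model with a mean per group was fitted in R 4.3.3 (limma 3.58.1) after TMM scaling by edgeR 4.0.16, after the study's methods. A call needed p under 0.05 and a Benjamini-Hochberg adjusted p under 0.25. The CPM given here use the TMM factors, and log2 CPM a prior count of 2. The filters used CPM by library totals, before TMM scaling. Total counts were 3445949 to 5976449 per library and limit most the genes with few counts, such as *Slc51b*.

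The members and lists were chosen with earlier results of these data known. Named were all members, *Fgfr4*, *Cyp7a1*, at most 6 called genes per list and comparison by smallest p, and for each tested member the gene with the highest r (3 for *Abcb11* and *Abcc3*). Slc9a3r1 and Arntl stand for newer symbols on these lists. *Dbp*, NRF2 targets, *Slco1a1* (for its HFD values), marker genes and clock genes were named after their values were seen. Further genes that this rule selects are not reported here.

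Other settings comprised DESeq2 1.42.0 (counts rounded), the quasi-likelihood test of edgeR, other filters, scalings, thresholds and library weights, a replicate block, and libraries left out. Leaving out Chow 3, HFD/FGFR4 KD 1 and Chow/FGFR4 KD 4 together was added after the data were seen. The fit was tested on simulated counts. Of all words of 31 bases in a member's transcripts (GENCODE M21), between 0% and 9.13% occur in another gene. The 9.13% is *Slc51b*, which shares them with *Rasl12*. *Slco2b1* shares 7.19%, most of them with *Gm15635* (6.36%), and *Slco1a4* shares 5.03%. Python 3.11.15 was used for sequences and figures.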

Additional observations from a re-analysis of the deposited data

Results flagged for a closer look

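Each member was searched in each group of 4 for a library far from the other 3, by Dixon's test. Of 40 such groups, 6 had one. Chance flags about 1 in 20 groups of continuous values, which does not apply to *Slc51b* at 1, 0, 0 and 0 counts, where any count above 0 is set apart. *Abcc2* was at 519.8 CPM in Chow/FGFR4 KD 3, where the next library had 430.3. *Atp8b1* was at 32.05 CPM in Chow 3, and the next library had 42.0. HFD/FGFR4 KD 1 was far from the rest for *Abcc3*, at 114 CPM against 189.8 for the next library, and for *Slco1b2*, at 1046 CPM against 858. *Slc51b* was at 1.62 CPM in Chow 3 (8 counts), the library with *Fabp6* and *Vil1*, and at 0.198 CPM in Chow/FGFR4 KD 1 (1 count), where the other 3 libraries had 0 counts.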

How the results depend on the processing

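Low depth limits *Slc51b* most, at 0 to 9 counts per library. The rise of *Abcb11* under KD on HFD, its fall on HFD in saline mice, and the diet changes of *Abcb4* and *Slco2b1* kept their direction and their call under every alternative fit that was run at the threshold of the study. Carriers called in KD on HFD (2) were 1 at an adjusted p under 0.05, 1 with library totals and 1 without HFD/FGFR4 KD 1 and Chow/FGFR4 KD 4 (*Abcc3* lost each time), and from 1 to 2 with a library left out. Of all genes 31, 114 and 209 were then called in that order, and 89 to 605 with a library left out, against 356. In HFD in saline mice (3) they were 6 with library totals, 6 with quality weights, 5 with no filter, 5 without Chow 3, HFD/FGFR4 KD 1 and Chow/FGFR4 KD 4, and from 3 to 5 with a library left out. Of all genes 4306, 3151, 5324 and 3281 were then called in that order, and 2420 to 3018 with a library left out, against 2939. With no filter 24944 genes were tested. In HFD in KD mice (3) the count was 1 at an adjusted p under 0.05, 4 with quality weights, where *Slc10a1* was added, and from 2 to 3 with a library left out. Of all genes 351 and 2642 were then called in that order, and 1189 to 2546 with a library left out, against 2293. The difference of the KD effects (0) gave 1 with DESeq2 and from 0 to 1 with a library left out, *Abcb11* without HFD/FGFR4 KD 2 (0.90, adjusted p 0.157). Of all genes 54 were called with DESeq2 and 27 without HFD/FGFR4 KD 2, against 4. KD on chow stayed at 0. Library totals moved the median of all genes to 0.287 in HFD in saline mice. The cause of the lost and gained calls was not tested. A fit of only the groups compared could not be made for the difference of the KD effects, which uses all 4 groups.

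Among changes that were not called, signs turned as follows. For KD on chow, *Abcb11* was -0.00919 with DESeq2, -0.0043 with edgeR, -0.0053 with Gm42418 and Lars2 removed, -0.015 with upper quartiles and -0.058 without the 3 libraries named above. *Abcb4* was 0.0029 with quality weights, 0.0042 with library totals and 0.012 without the 3 libraries. *Abcc3* was 0.014 without the 2 libraries and 0.15 without the 3. *Slco1a4* was 0.0044 with edgeR, 0.15 with quality weights, 0.30 without the 2 and 0.45 without the 3. For HFD in KD mice, *Abcb11* was -0.012 without the 2 or the 3 libraries. For HFD in saline mice with library totals, *Atp8b1* was 0.067 and *Slc10a1* 0.035. For the difference of the KD effects, *Atp8b1* was 0.0013 with DESeq2, 0.0029 with upper quartiles and 0.027 without the 3, *Slc10a1* was -0.0056 with DESeq2, -0.0105 with edgeR, -0.10 with library totals, -0.10 without the 2 and -0.14 without the 3, and *Slco1a4* was -0.043 with quality weights.

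With single libraries left out, signs turned in these ranges. For KD on chow they were -0.062 to 0.068 (*Abcb11*), -0.11 to 0.059 (*Abcb4*), -0.29 to 0.014 (*Abcc3*) and -0.39 to 0.30 (*Slco1a4*). For KD on HFD they were -0.23 to 0.48 (*Slco1a4*) and -0.12 to 0.043 (*Slco1b2*). For HFD in KD mice they were -0.069 to 0.22 (*Abcb11*) and -0.38 to 0.012 (*Abcc3*). For the difference of the KD effects they were -0.16 to 0.0034 (*Abcb4*), -0.13 to 0.013 (*Abcc2*), -0.12 to 0.092 (*Atp8b1*), -0.091 to 0.10 (*Slc10a1*), -0.17 to 0.60 (*Slco1a4*) and -0.068 to 0.031 (*Slco2b1*).

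Groups share replicate numbers. With group means taken out, equally numbered libraries had an r from -0.44 to 0.46 over pairs, with both signs, given as a description. Whether they share more than a number was not tested. With a replicate block the counts of called carriers were 2, 0, 3, 3 and 0, as without it. Of all genes 259, 1, 2949, 2295 and 2 were called with the block.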
